A study of Homo sapiens with 27 samples.

Results

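Thiamet-G inhibits O-GlcNAcase (OGA), the enzyme that removes the single sugar O-GlcNAc from serine and threonine residues of proteins in the nucleus and cytosol. The messenger RNA response to 48 h of Thiamet-G was taken from 3 arrays labelled with Thiamet-G at 48 h and 3 arrays labelled with DMSO at 48 h, 6 of the 27 arrays of the series. The cells were MDA-MB-231, a human breast cancer line with mesenchymal features. The groups compared were cells with Thiamet-G at 25 µM for 48 h and cells with DMSO, the vehicle, for 48 h. Both were kept in DMEM with FBS. Another group of 3 arrays at 48 h had 5SGlcNAc at 50 µM, an inhibitor of the transferase OGT, which adds the sugar. The other 18 arrays were single ones, 1 for each treatment at 0, 2, 4, 6, 8 and 24 h. All values are log2 levels from HG-U133A+2 Affymetrix arrays, and a difference is Thiamet-G minus DMSO on that scale. Each of 11963 genes was represented by its brightest probe set.

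O-GlcNAc is placed by one enzyme, OGT, and removed by one enzyme, OGA, and the modification is found on many transcription factors, chromatin proteins and signalling proteins. Blocking OGA raises the sugar on proteins and blocking OGT lowers it. The transcripts of OGA and OGT are themselves known to respond to such changes.

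Correlations between any pair of the 6 arrays were 0.998 to 0.999. Array medians were 7.68, 7.72 and 7.71 with Thiamet-G and 7.76, 7.73 and 7.74 with DMSO. ACTB probe sets at the 3' and 5' ends, whose gap grows with RNA degradation, differed by 0.28, 0.39 and 0.25 with Thiamet-G and 0.33, 0.25 and 0.22 with DMSO. Whether the 3 arrays of a group came from separate cultures is not given in the labels, and p-values therefore reflect no more than the spread among these arrays, which may be technical. VIM, the intermediate filament of mesenchymal cells, was at 14.96, 14.97 and 14.96 with Thiamet-G and at 15.02, 15.01 and 14.98 with DMSO. PTPRC, a marker of blood cells, was at 3.88 to 4.12 with Thiamet-G and at 4.12 to 4.44 with DMSO. No member of 15 mesenchymal, 20 luminal or 10 haematopoietic markers passed the test. Of 13 fibroblast markers 1 did, the collagen gene COL6A3, which fell by 0.36.

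With Thiamet-G many genes fell a little and few rose. Of 11963 genes, 417 (3.49%) passed at a Benjamini-Hochberg adjusted p of 0.05 in limma, and 2373 (19.8%) had an unadjusted p under 0.05. Of the called genes, 360 (3.01% of all genes) fell and 57 (0.476%) rose. The median size of a change among the called genes was 0.28 in both directions, with 0.95 as the largest fall and 0.62 as the largest rise. Only 6 genes fell and 1 gene rose by more than 1.5-fold. In all 360 fallen and all 57 risen genes the Thiamet-G and DMSO arrays did not overlap. A lack of overlap therefore sets no called gene apart from the other called genes. The median over all genes was -0.01, and the median standard error of a difference was 0.0615. After quantile normalization 73.6% of called genes fell, and 74.5% after median centring, against 86.3% as deposited. The number of called genes was 122, 683 and 166 without Thiamet-G replicate 1, 2 or 3, and 153, 138 and 101 without DMSO replicate 1, 2 or 3.

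The falls were unevenly spread over levels. Genes were split by level into 3 equal bins. In the dim bin 19 fell and 10 rose, in the middle bin 200 fell and 18 rose, and in the bright bin 141 fell and 29 rose. The median standard error was 0.0846, 0.0623 and 0.0471 in the same order, so that small changes of dim genes were harder to detect. The middle bin had 5.02% of its genes called as fallen and the dim bin 0.476%. The median difference was 0.02, -0.04 and -0.01 in the dim, middle and bright bins. Mean levels of the cilium, Golgi and RAB lists below lay in the middle bin, which spans 6.92 to 9.76.

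**Figure D1:**
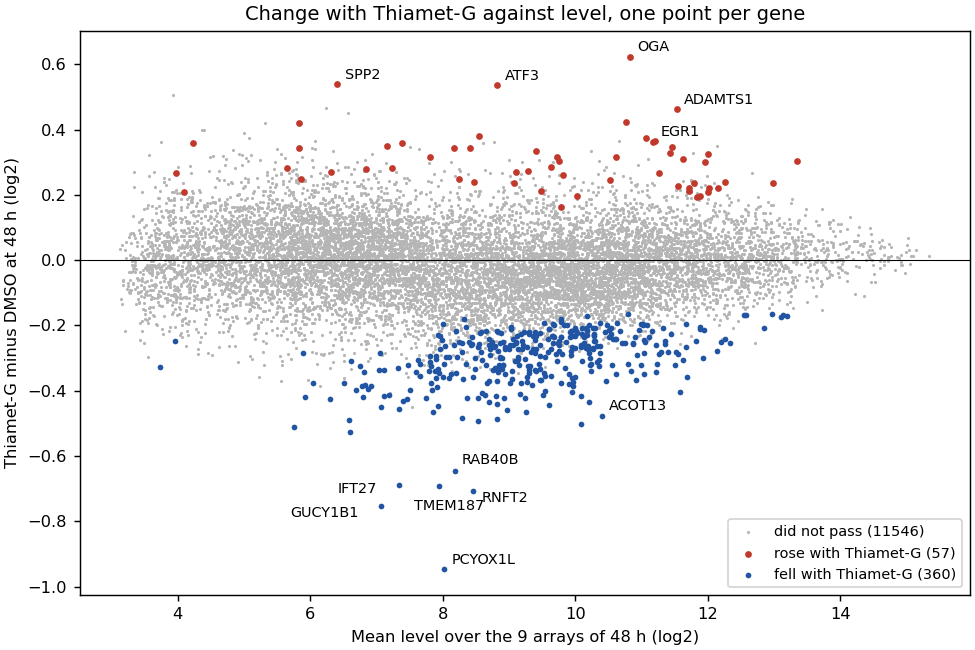
Each point is 1 of 11963 genes, with the mean log2 level over the 9 arrays of 48 h on the x axis and the log2 difference, Thiamet-G minus DMSO at 48 h, on the y axis. The 57 genes that rose are red and the 360 that fell are blue, and most of the blue points lie to the right of the dim bin of genes, which holds 19 of them.

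OGA, the target of the drug, had the largest rise of all called genes. Its level was 11.62, 11.54 and 11.63 in the Thiamet-G arrays, against 10.93, 11.02 and 10.97 in the DMSO arrays, a 1.54-fold increase (difference 0.62 ± 0.0448, SE, n = 3 per group, limma adjusted p = 0.000912). All Thiamet-G arrays lay above all DMSO arrays. A second OGA probe set rose by 0.56, and the third, a dim one, differed by 0.17. OGT, which adds the sugar, was at 11.84, 11.75 and 11.86 with Thiamet-G and at 12.07, 12.03 and 12.07 with DMSO by its brightest probe set. That probe set fell by 0.24 (limma adjusted p = 0.0217), but the other 4 OGT probe sets differed by 0.09 to 0.17, and the mean over all 5 was 0.06. No direction can be given for OGT transcripts from these probe sets. Of 11 measured genes that cycle the sugar or belong to the hexosamine pathway, which makes its donor, only OGA rose and only OGT fell. The list had a median of -0.01, the same as that of all genes. GFPT1, which starts the pathway, differed by -0.04, and UAP1, which makes the sugar nucleotide, by 0.00. OGA remained called in all 14 alternatives tried, and the OGT call was lost without Thiamet-G replicate 1 and without each DMSO replicate.

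The largest fall was that of PCYOX1L, a relative of prenylcysteine oxidase. It was at 7.54, 7.30 and 7.40 with Thiamet-G, against 8.35, 8.37 and 8.36 with DMSO, and was 1.93-fold lower (difference -0.95 ± 0.0600, SE, n = 3 per group, limma adjusted p = 0.000597). The lowest DMSO array exceeded the highest Thiamet-G array by far more than the arrays of either group differed among themselves. GUCY1B1, the beta subunit of soluble guanylate cyclase, which makes cyclic GMP in response to nitric oxide, was at 6.54, 6.62 and 6.71 with Thiamet-G and at 7.38, 7.34 and 7.41 with DMSO. It fell by 0.75 (adjusted p = 0.00121), and its second probe set fell by 0.52 (unadjusted p = 0.00392). RNFT2, a transmembrane protein with a RING finger, was at 8.07, 7.96 and 8.08 with Thiamet-G and at 8.69, 8.83 and 8.71 with DMSO, a fall of 0.71 (adjusted p = 0.00160). Its second probe set fell by 0.58. TMEM187, a transmembrane protein, was at 7.38, 7.49 and 7.58 with Thiamet-G and at 8.22, 8.09 and 8.22 with DMSO, and fell by 0.69. As in all called genes, the Thiamet-G and DMSO arrays of these genes did not overlap. Each of them remained called in every alternative in which it was measured.

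ACOT13, an acyl-CoA thioesterase, was at 9.93, 10.05 and 9.98 with Thiamet-G and at 10.46, 10.45 and 10.48 with DMSO, a fall of 0.48 (adjusted p = 0.00199). LIAS, which makes the lipoic acid cofactor of mitochondrial dehydrogenases, was at 8.09, 8.20 and 8.27 with Thiamet-G and at 8.65, 8.71 and 8.68 with DMSO, and fell by 0.49. ATP6V0E2, a subunit of the vacuolar proton pump, fell by 0.50. OXLD1, a protein with an oxidoreductase-like domain, fell by 0.47. RAD50, a component of the complex that senses DNA double-strand breaks, was at 8.49, 8.48 and 8.53 with Thiamet-G and at 9.0, 9.0 and 8.96 with DMSO. Its brightest probe set fell by 0.49 (adjusted p = 0.00202) and its second by 0.50, so that 2 separate probe sets gave nearly the same change. SLC1A1, a glutamate transporter, fell by 0.48, and its second probe set differed by -0.15. PAN2, which shortens poly(A) tails, fell by 0.47. RNF32, another RING finger protein, fell by 0.51, and GRIK2, a kainate receptor subunit, by 0.49. Both genes lay in the dim bin of levels, and a second, still dimmer GRIK2 probe set differed by 0.00. The call of SLC1A1 was lost without DMSO replicate 3, and that of PAN2 without each DMSO replicate.

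**Figure D2:**
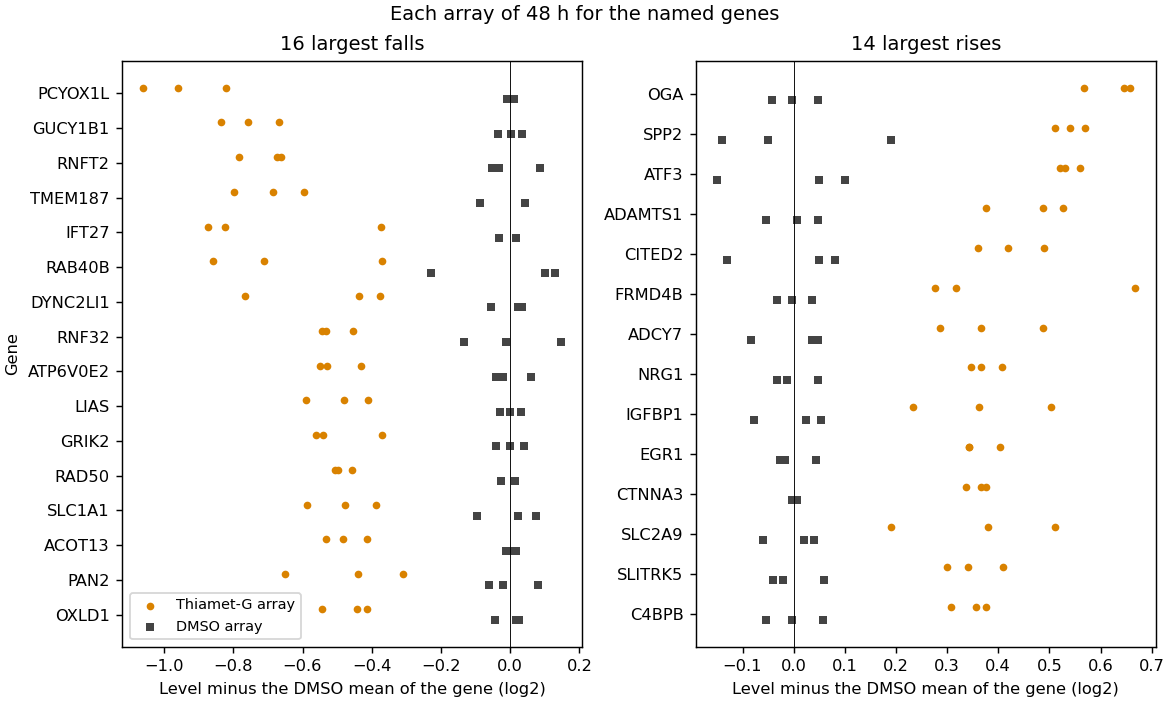
Each point is 1 array of 48 h, plotted as its log2 level minus the DMSO mean of that gene, for the 16 largest falls (left) and the 14 largest rises (right). Circles are the 3 Thiamet-G arrays and squares the 3 DMSO arrays. The genes were chosen among called genes without overlap, so the separation of circles and squares was set by that choice.

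Among genes of intraflagellar transport, the traffic of particles along the cilium by kinesin-2 and dynein-2 motors, and of the cilium itself, several fell. The gene lists here and below were chosen with earlier results of these data known, so their shares describe the members and test nothing. Of 38 measured members of the cilium list, 6 fell (15.8%) and none rose, against 3.01% and 0.476% of all genes, and the median was -0.11 against -0.01. In the middle bin of levels 5.02% of genes fell and the median was -0.04. IFT27, a small GTPase of the transport particle, was at 6.64, 7.14 and 6.69 with Thiamet-G and at 7.53, 7.48 and 7.53 with DMSO, a fall of 0.69 (adjusted p = 0.0155). Thiamet-G replicate 2 lay closer to the DMSO arrays than the other Thiamet-G arrays did, and a second IFT27 probe set differed by -0.003. DYNC2LI1, the light intermediate chain of dynein-2, was at 6.44, 6.11 and 6.50 with Thiamet-G and at 6.82, 6.91 and 6.90 with DMSO, and fell by 0.53 (adjusted p = 0.0331). Its second probe set fell by 0.37, and the gene lay in the dim bin of levels. KIF3A, a motor subunit of kinesin-2, was at 7.72, 7.57 and 7.64 with Thiamet-G, against 8.07, 7.97 and 7.97 with DMSO, and fell by 0.36. IFT52 and IFT88, core subunits of the same particle as IFT27, fell by 0.26 and 0.25. TCTN1, a protein of the ciliary transition zone, fell by 0.32. Members that did not pass included IFT140 at -0.33, BBS7 at -0.26, DYNC2H1, the dynein-2 heavy chain, at 0.03 and RPGR, another ciliary protein, at 0.37. The count of 6 falls became 2 after quantile normalization, 4 after median centring and 1 in a fit of the 6 arrays alone. It was 1, 7 and 3 without Thiamet-G replicate 1, 2 or 3, and 0, 2 and 0 without DMSO replicate 1, 2 or 3. The list median stayed below 0 under both other scalings (-0.07 and -0.07).

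Several lysosomal and Golgi genes fell and none rose. Of 40 lysosomal genes 4 fell (10.0%, against 3.01% of all genes), with a list median of -0.09. They were CTSF, a cysteine protease, FUCA1, which removes fucose, MCOLN1, a cation channel, and ATP6AP1, an accessory subunit of the proton pump. CTSF was at 8.45, 8.49 and 8.42 with Thiamet-G and at 8.89, 8.81 and 8.79 with DMSO, and fell by 0.38 (adjusted p = 0.00454). FUCA1 fell by 0.30, MCOLN1 by 0.22 and ATP6AP1 by 0.21. Only CTSF of these stayed called without Thiamet-G replicate 1, where the list had 1 fall, and without DMSO replicate 3, where it also had 1.

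Of 57 Golgi glycosyltransferases 4 fell (7.02%, against 3.01% of all genes and 5.02% of the middle bin of levels). The list median was -0.09, against -0.04 in that bin. GALNT6, which starts O-linked glycans of mucin type, was at 9.58 in all Thiamet-G arrays and at 9.86 in all DMSO arrays, and fell by 0.28 (adjusted p = 0.00788). EXT2, a heparan sulfate polymerase subunit, was at 10.70, 10.73 and 10.81 with Thiamet-G and at 11.03, 11.01 and 11.07 with DMSO, a fall of 0.29. Its second probe set differed by -0.18. B4GALT7, which builds the linker of proteoglycan chains, fell by 0.20, and MAN1A2, which trims mannose, by 0.19. The second probe set of B4GALT7 was at -0.26 and that of MAN1A2 at 0.003, so the MAN1A2 fall rests on 1 of its probe sets. In the lysosomal and the Golgi lists the medians were -0.09 and -0.07 after quantile normalization and -0.05 in both after median centring. The Golgi count was 1 without Thiamet-G replicate 1 or DMSO replicate 3, and 2 or 3 without any other array.

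Of 21 ER chaperone and unfolded protein response genes 3 fell (14.3%, against 3.01% of all genes) and none rose, with a median of -0.04. SDF2L1, an ER protein of the chaperone complex, was at 9.38, 9.45 and 9.5 with Thiamet-G and at 9.78, 9.76 and 9.85 with DMSO, and fell by 0.35 (adjusted p = 0.00755). EDEM1, which directs misfolded glycoproteins to degradation, fell by 0.27, and PDIA4, a disulfide isomerase, by 0.20. The second probe set of PDIA4 was at -0.28. XBP1, a transcription factor of this response, did not pass and differed by 0.10, the highest value of the list. The list had 1 fall without DMSO replicate 2 and 2 falls without any other 1 array. The median of 43 RAB GTPases, which direct vesicle traffic, was -0.04, and that of the middle bin of levels was also -0.04. Of these genes 4 fell (9.30%, against 3.01% of all genes and 5.02% of the middle bin) and none rose. They were RAB40B at -0.65, RAB5B at -0.25, RAB5C at -0.24, with a second probe set at -0.11, and RAB38 at -0.20. RAB40B was at 7.82, 7.67 and 8.16 with Thiamet-G and at 8.30, 8.63 and 8.66 with DMSO, with wide spread in both groups, and its second probe set was at -0.17. No RAB gene passed without Thiamet-G replicate 1, without DMSO replicate 3, after median centring or in the fit of the 6 arrays alone.

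Respiratory chain, mitochondrial ribosomal and replication genes held 2, 3 and 3 falls. Of 58 respiratory chain subunits 2 fell (3.45%), close to the 3.01% of all genes. NDUFA7, a subunit of complex I, was at 9.68, 9.76 and 9.73 with Thiamet-G and at 10.10, 10.13 and 10.08 with DMSO, a fall of 0.38 (adjusted p = 0.00419), and ATP5PD of ATP synthase fell by 0.17. Of 46 mitochondrial ribosomal proteins 3 fell (6.52%), MRPL34 by 0.28, MRPL24 by 0.26 and MRPS33 by 0.22, with a list median of -0.01. Of 44 replication genes 3 fell (6.82%) and none rose, with a median of -0.03. RPA3, the small subunit of the protein that binds single-stranded DNA, was at 11.42, 11.35 and 11.42 with Thiamet-G and at 11.79, 11.79 and 11.82 with DMSO. It fell by 0.40 (adjusted p = 0.00202), and POLA2 and PRIM1, both of the polymerase alpha and primase complex, fell by 0.27 and 0.24. Without Thiamet-G replicate 1 or DMSO replicate 3, RPA3 and NDUFA7 stayed called, and no mitochondrial ribosomal protein did. In mitosis 1 of 45 genes fell (2.22%), HMMR, a spindle protein, by 0.32. Of 22 measured genes of cholesterol synthesis and its regulation 2 fell (9.09%, against 3.01% of all genes) and none rose. The list median was -0.003, with 10 differences above 0 and 12 below. PMVK, a kinase of the mevalonate pathway, fell by 0.44 (adjusted p = 0.00471), and SREBF1, a regulator of lipid synthesis, by 0.32. The highest member, HMGCS1, differed by 0.31 and did not pass. Without Thiamet-G replicate 1 and without each DMSO replicate the calls of HMMR and SREBF1 were lost, and that of SREBF1 also without Thiamet-G replicate 3. CDKN1A, the p21 inhibitor of cyclin-dependent kinases, was at 10.68, 10.78 and 10.74 with Thiamet-G and at 11.17, 11.03 and 11.05 with DMSO, and fell by 0.35. No other one of 19 p53 target genes was called. Its call was lost without Thiamet-G replicate 1 or 3 and without DMSO replicate 1 or 3.

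**Figure D3:**
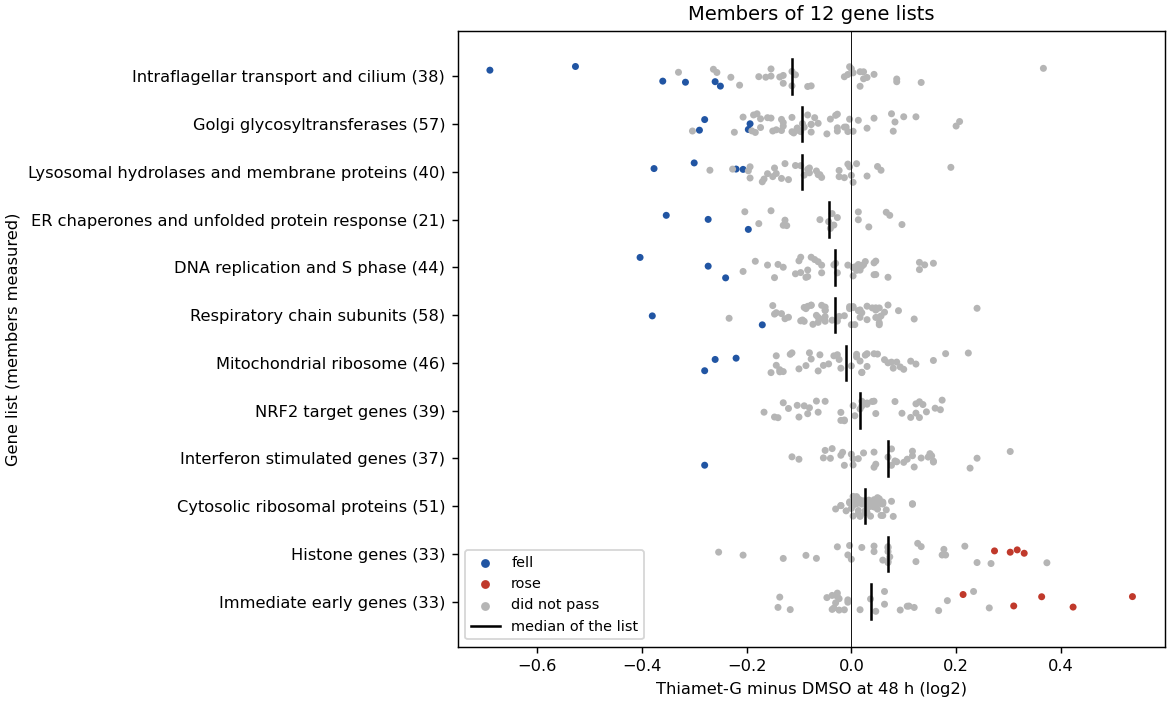
Each point is a measured gene of 1 of 12 lists, named at the left with the number measured, at its log2 difference of Thiamet-G minus DMSO at 48 h. Blue points fell, red points rose, grey points did not pass and the black bar is the list median, which is lowest in the cilium list (-0.11) and highest in the interferon and histone lists (0.07).

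The rises included genes that cells switch on within minutes to hours of a stimulus, before new protein is made. Of 33 measured immediate early genes 5 rose (15.2%) and none fell, against 0.476% and 3.01% of all genes, and the median was 0.04 against -0.01. ATF3, a transcription factor induced by stress, was at 9.11, 9.07 and 9.08 with Thiamet-G and at 8.40, 8.60 and 8.65 with DMSO, a 1.45-fold rise (difference 0.54, adjusted p = 0.00482). EGR1, a zinc finger transcription factor, was at 11.33, 11.33 and 11.39 with Thiamet-G and at 10.97, 11.03 and 10.96 with DMSO, and rose by 0.36 (adjusted p = 0.00840). Its second probe set rose by 0.27 (unadjusted p = 0.00936). The Thiamet-G arrays of both genes lay close together and above every DMSO array. CITED2, which binds the coactivators CBP and p300, was at 11.15, 11.02 and 11.08 with Thiamet-G and at 10.74, 10.71 and 10.53 with DMSO, and rose by 0.42. DUSP1, a phosphatase of MAP kinases, was at 11.82, 11.69 and 11.78 with Thiamet-G and at 11.43, 11.50 and 11.43 with DMSO, and rose by 0.31, while its dimmer second probe set differed by 0.14. MAFF, a small MAF transcription factor, rose by 0.21. Most of the list did not pass: FOS differed by 0.26, JUN by -0.01, MYC by -0.05 and NR4A1 by -0.01. ATF3 and EGR1 stayed called in all 14 alternatives, CITED2 lost its call without Thiamet-G replicate 1 and DUSP1 without DMSO replicate 3. The count of 5 was 3 without Thiamet-G replicate 1 or DMSO replicate 3 and also 3 when all probe sets of each gene were averaged.

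Promoters of 3 genes are shown, as EGR1 and DUSP1 rose together among the immediate early genes and IFT27 fell. They are from RefSeq on GRCh38.p14, 250 bases before to 50 after the start of the gene, and run 5' to 3' on the strand of the gene. Capitals mark matches to the CArG box, bound by SRF, in EGR1, and to the CRE (TGACGTCA), bound by CREB and ATF proteins, in DUSP1 and IFT27. EGR1 is at chr5:138465229-138465528 on the plus strand, DUSP1 at chr5:172771146-172771445 on the minus strand and IFT27 at chr22:36776070-36776369 on the minus strand.
EGR1: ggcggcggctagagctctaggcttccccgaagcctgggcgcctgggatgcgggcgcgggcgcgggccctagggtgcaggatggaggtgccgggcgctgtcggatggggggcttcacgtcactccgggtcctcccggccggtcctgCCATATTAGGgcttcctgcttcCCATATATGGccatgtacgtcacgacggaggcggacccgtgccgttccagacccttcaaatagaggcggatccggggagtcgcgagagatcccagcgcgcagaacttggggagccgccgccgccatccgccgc
DUSP1: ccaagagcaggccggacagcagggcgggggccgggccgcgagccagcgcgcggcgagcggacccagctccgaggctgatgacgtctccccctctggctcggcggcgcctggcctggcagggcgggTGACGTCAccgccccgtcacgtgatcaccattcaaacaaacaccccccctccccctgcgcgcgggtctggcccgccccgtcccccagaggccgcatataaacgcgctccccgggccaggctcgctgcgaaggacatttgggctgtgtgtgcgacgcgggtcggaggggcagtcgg
IFT27: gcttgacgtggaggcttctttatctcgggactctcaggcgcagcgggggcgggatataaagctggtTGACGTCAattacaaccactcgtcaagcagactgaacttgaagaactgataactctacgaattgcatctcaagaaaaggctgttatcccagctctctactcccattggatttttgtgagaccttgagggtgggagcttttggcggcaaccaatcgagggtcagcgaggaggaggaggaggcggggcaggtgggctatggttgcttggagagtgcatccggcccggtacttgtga
The EGR1 matches start 105 and 83 bases upstream of the gene start, that of DUSP1 125 bases upstream and that of IFT27 184 bases upstream. Both strands were searched. A gene was counted if any of its promoters in the table held a match. The CRE was found for 3 of 41 genes that rose (7.32%) and 11 of 310 that fell (3.55%). It was found for 343 of 9563 (3.59%) of all tested genes with a promoter in the table. The CArG box was found for 2 of 41 (4.88%), 7 of 310 (2.26%) and 174 of 9563 genes (1.82%) in the same order. Over all 35116 promoters of the table the shares were 1.85% for the CRE and 1.29% for the CArG box. These are shares of promoters and not of genes, as 5191 genes had more than 1 promoter. A match is a description of the sequence and not a site of binding.

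ADAMTS1, a secreted metalloprotease, was at 11.78, 11.67 and 11.82 with Thiamet-G and at 11.30, 11.34 and 11.24 with DMSO, and rose by 0.46 (adjusted p = 0.00597). NRG1, a growth factor of the EGF family that binds ERBB3 and ERBB4, averaged 11.33 ± 0.031 with Thiamet-G and 10.95 ± 0.042 with DMSO by its brightest probe set (SD, n = 3 each), and rose by 0.37 without overlap. Its other 5 probe sets differed by -0.02 to 0.18, and averaging all of them ended the call. IGFBP1, which binds insulin-like growth factors, was at 11.83, 11.56 and 11.69 with Thiamet-G and at 11.38, 11.35 and 11.25 with DMSO, and rose by 0.37 (adjusted p = 0.0263). C4BPB, a chain of the complement regulator C4b-binding protein, rose by 0.35, and stayed called in all 14 alternatives, as ADAMTS1 did. The NRG1 call was lost without Thiamet-G replicate 1 or DMSO replicate 3, and that of IGFBP1 without any 1 array other than Thiamet-G replicate 2. ADCY7, an adenylate cyclase that makes cyclic AMP, rose by 0.38, while GUCY1B1 and PRKACA, the catalytic subunit of the kinase activated by cyclic AMP, fell by 0.75 and 0.27. These were the 3 called ones of 35 genes of cyclic nucleotide signalling, with 2.86% risen and 5.71% fallen, against 0.476% and 3.01% of all genes. IL6, an inflammatory cytokine, rose by 0.24, and the other 22 cytokine genes driven by NF-kB did not pass. The calls of ADCY7, PRKACA and IL6 were also lost without any 1 array other than Thiamet-G replicate 2.

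The largest rises also included that of SPP2, a secreted phosphoprotein, at 6.75, 6.72 and 6.69 with Thiamet-G and at 6.13, 6.37 and 6.04 with DMSO, a difference of 0.54 (adjusted p = 0.0234). CTNNA3, a catenin of cell junctions, was at 4.39, 4.43 and 4.42 with Thiamet-G and at 4.06, 4.05 and 4.05 with DMSO, and rose by 0.36. SPP2, CTNNA3 and FRMD4B lay in the dim bin of levels, which spans 3.13 to 6.92. SLITRK5, a neuronal membrane protein, rose by 0.35 with a second probe set at -0.02, FRMD4B, a FERM domain protein, by 0.42 with others at 0.04 and -0.05, and SLC2A9, a urate transporter, by 0.36. Without DMSO replicate 1 or 3, SPP2, FRMD4B and SLC2A9 were no longer called.

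Histone genes of the replication-dependent clusters rose in part. Of 33 measured histone genes 4 rose (12.1%) and none fell, against 0.476% and 3.01% of all genes, and the median was 0.07 against -0.01. H1-2, a linker histone, was at 11.68, 11.73 and 11.75 with Thiamet-G and at 11.36, 11.35 and 11.46 with DMSO, and rose by 0.33 (adjusted p = 0.0109). The H2B genes H2BC12, H2BC6 and H2BC9 rose by 0.30, 0.32 and 0.27. H2B genes are nearly identical in sequence, and 2 of the 3 were read by probe sets of shared sequence, so the members that rose are uncertain. Without such probe sets 2 members, H1-2 and H2BC12, rose. H1-10 was the lowest member at -0.25 and did not pass. The count was 2, 5 and 3 without Thiamet-G replicate 1, 2 or 3, and 2, 3 and 2 without DMSO replicate 1, 2 or 3.

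NRF2, the antioxidant transcription factor named in the title of the series, gave no called target. Of 39 measured NRF2 targets none passed, 10 had arrays that did not overlap, against 21.5% of all genes, and the median was 0.02. Of these 10, 8 lay above DMSO and 2 below. Of all genes 6.37% lay above and 15.1% below DMSO without overlap. TALDO1, an enzyme of the pentose phosphate pathway, had the smallest p among them. It was at 12.31, 12.35 and 12.30 with Thiamet-G and at 12.44, 12.42 and 12.49 with DMSO (difference -0.13, adjusted p = 0.110, 95% confidence interval -0.22 to -0.04). NFE2L2, which encodes NRF2, differed by 0.01. KEAP1, which holds NRF2 for degradation, was at 11.28, 11.37 and 11.3 with Thiamet-G and at 11.48, 11.46 and 11.45 with DMSO, without overlap, but its difference of -0.15 did not pass (adjusted p = 0.0938). NQO1, GCLM, GCLC, TXNRD1 and SLC7A11, enzymes and a cystine transporter of redox defence, differed by 0.04 to 0.14, and HMOX1, which degrades haem, by -0.05 (95% confidence interval -0.17 to 0.07). Of 37 interferon stimulated genes only IRF7, a transcription factor of that response, passed, with a fall of 0.28. The list median was 0.07, against -0.01 over all genes. The IRF7 call was lost without Thiamet-G replicate 1 and without DMSO replicate 2 or 3. None of 51 cytosolic ribosomal proteins passed, with differences of -0.03 to 0.12 and a median of 0.03. A p that misses the threshold does not show that these genes were unchanged.

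A second probe set was available for 121 of the genes that fell and 25 that rose. Among the fallen genes it had the same sign in 105 (86.8%) and an unadjusted p under 0.05 as well in 61 (50.4%), with a median of -0.17 against -0.27 for the brightest probe set. Among the risen genes it had the same sign in 18 (72.0%) and also such a p in 11 (44.0%). The same shares over all 4310 genes with a second probe set were 62.6% and 12.8%. Both probe sets of a gene were read on the same arrays and are not independent samples.

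**Figure D4:**
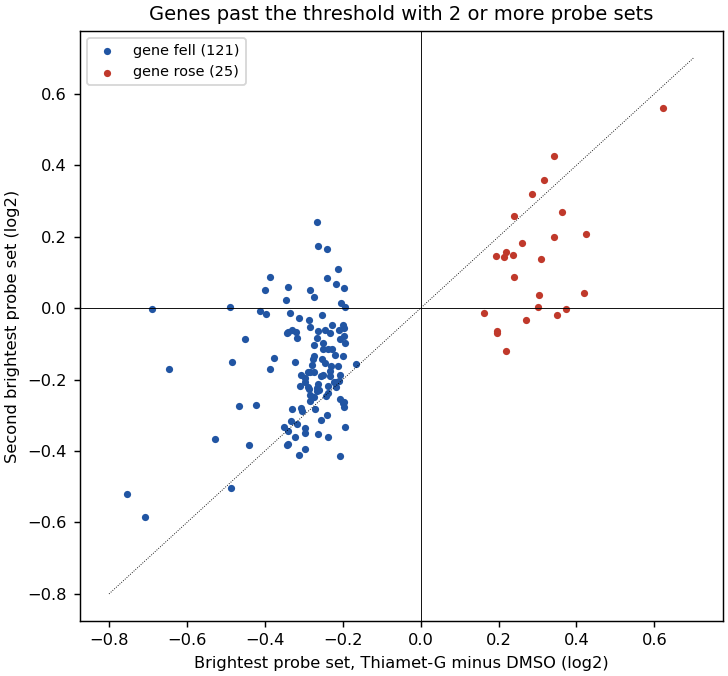
Each point is a called gene with at least 2 probe sets, with the log2 difference of Thiamet-G minus DMSO at 48 h of the brightest probe set on the x axis and of the second brightest on the y axis. The dotted line marks equal values, and 105 of 121 blue points (genes that fell) lie below 0 and 18 of 25 red points (genes that rose) lie above 0 on the y axis.

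The arrays of 0 to 24 h share no array with those of 48 h and give the same genes 1 Thiamet-G and 1 DMSO array at each time. At 24 h, 341 of the 360 genes that fell at 48 h lay below DMSO (94.7%), against 49.9% of the genes that did not pass. The median difference of the 360 was -0.22 at 24 h. Their share below DMSO was 65.3%, 50.3%, 84.2%, 62.2% and 72.2% at 0, 2, 4, 6 and 8 h, and that of genes that did not pass was 55.8%, 46.9%, 53.9%, 43.6% and 47.1%. The ACTB gap between 3' and 5' probe sets was at least 0.42 in every Thiamet-G and DMSO array of 0 to 24 h, and at most 0.39 at 48 h. It was widest at 4 h, at 1.24 in the Thiamet-G array and 1.64 in the DMSO array. At 2 h it was 0.95 with Thiamet-G and 0.48 with DMSO. The part of this gap in the shares at any of these times was not tested. Of the 57 genes that rose, 49 lay above DMSO at 24 h (86.0%), against 50.1% of the genes that did not pass. Their share above DMSO was 29.8%, 87.7%, 57.9%, 66.7% and 94.7% at 0, 2, 4, 6 and 8 h, and that of genes that did not pass was 44.2%, 53%, 46.1%, 56.4% and 52.8%. At 0 h most of the risen genes thus lay below DMSO. The shares of genes that did not pass varied with level. In the bright bin 68.2% of them lay above DMSO at 2 h and 71.0% at 8 h. In the same bin 64.6% lay below DMSO at 0 h and 58.4% at 24 h. In the dim bin 40.5% lay above DMSO at 2 h and 37.4% at 8 h. The middle bin holds 200 of the 360 fallen genes. Of its genes that did not pass, 55.9%, 49.1%, 61.7%, 42.2%, 49.4% and 52.2% lay below DMSO at 0, 2, 4, 6, 8 and 24 h. The part of level in the shares of the called genes was not tested. With 1 array per group at each time these shares have no test, and genes on an array are not independent. After quantile normalization the shares at 24 h were 92.8% for the fallen and 87.7% for the risen genes.

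Single genes differed in their course. PCYOX1L was at -0.03 at 2 h, between -0.26 and -0.15 from 4 to 8 h, and at -1.01 at 24 h. ACOT13 and SLC1A1 were at -0.69 and -0.83 at 24 h, and GUCY1B1 was already at -0.73 at 8 h. At 2 h GUCY1B1, SLC1A1 and ACOT13 lay above DMSO, at 0.34, 0.10 and 0.03. PAN2 and TMEM187 were at -0.61 and -0.46 at 8 h, and at -0.05 and -0.20 at 24 h. ADAMTS1 and CITED2 lay above DMSO at all 5 times from 2 to 24 h, with mean differences of 0.35 and 0.36, and CDKN1A lay below it at all 5 times, with a mean of -0.41. OGA was between -0.01 and 0.09 from 2 to 6 h, at 0.47 at 8 h and at 0.16 at 24 h. EGR1 went the other way before 48 h, at -0.65, -0.74, -0.38, -0.30 and -0.16 from 2 to 24 h. ATF3 was at -1.51 at 4 h, in the pair of arrays with the widest ACTB gaps, and at -0.02 at 24 h.

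Tested over 2 to 24 h with time as a block, no gene passed in limma (0 of 11963, with 1108 genes or 9.26% at an unadjusted p under 0.05). With trend and robust variance 20 genes passed, 15 up and 5 down, among them ADAMTS1, CITED2, IGFBP1 and NRG1 up and CDKN1A down. Without dim genes 10 passed, again with CITED2 up and CDKN1A down. The difference between the 48 h effect and the effect over 2 to 24 h passed for no gene either (773 genes or 6.46% at an unadjusted p under 0.05). For EGR1 that difference was 0.81 ± 0.190 (SE; unadjusted p = 0.000438, limma adjusted p = 0.365).

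**Figure D5:**
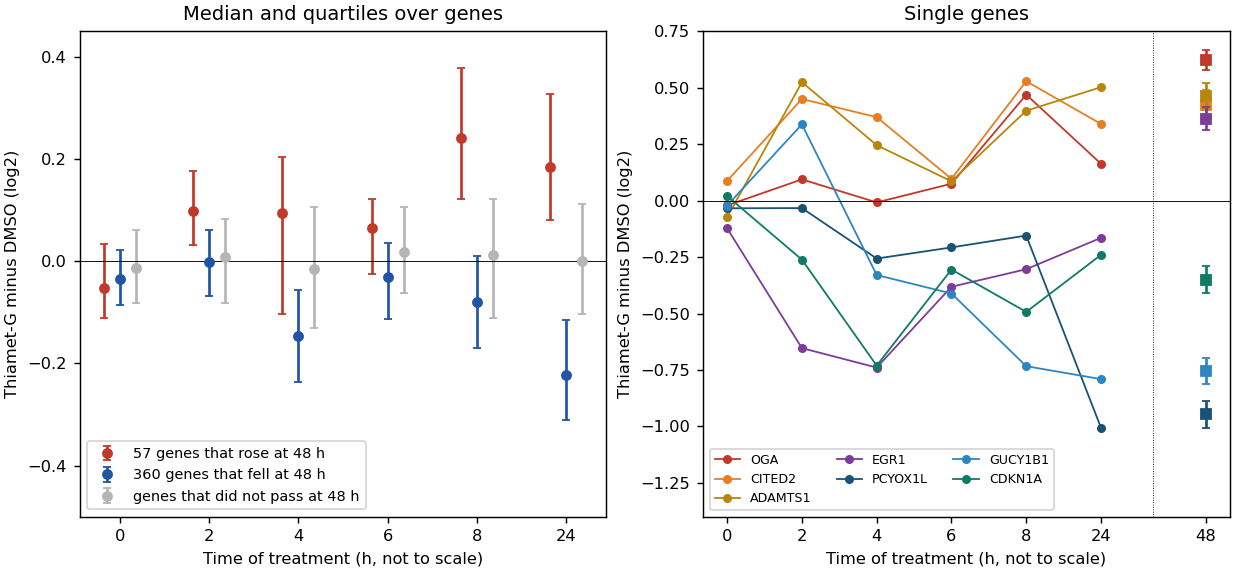
Left, median and quartiles over genes of the log2 difference between the single Thiamet-G and DMSO arrays at each time, for the 57 genes that rose at 48 h, the 360 that fell and those that did not pass. Right, the same difference for 7 genes, with the 48 h value and its SE (n = 3 per group) as squares; the median of the fallen genes is -0.22 at 24 h and PCYOX1L reaches -1.01.

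Set against 5SGlcNAc at 48 h, 1634 genes (13.7%) differed with Thiamet-G, 812 higher and 822 lower. This comparison has the Thiamet-G arrays in common with the one against DMSO, so the values are given side by side. OGA was higher with Thiamet-G than with 5SGlcNAc by 1.70, with 5SGlcNAc arrays at 9.85, 9.91 and 9.92, below the DMSO arrays. PCYOX1L was at 8.33, 8.32 and 8.24 with 5SGlcNAc, near its DMSO levels, and differed by -0.88 (adjusted p = 5.85e-05). ACOT13 was at 10.76, 10.74 and 10.79 with 5SGlcNAc, above both other groups, and differed by -0.78. IGFBP1 was at 10.54, 10.65 and 10.54 with 5SGlcNAc, below both, and differed by 1.12. HMOX1, an NRF2 target, was at 8.71, 8.62 and 8.76 with Thiamet-G and at 11.15, 11.05 and 11.12 with 5SGlcNAc, and differed by -2.41, while its Thiamet-G and DMSO arrays overlapped. GCLM and NQO1 differed by -1.07 and -0.94 in the same comparison. Other genes changed with Thiamet-G against DMSO but did not pass against 5SGlcNAc. DYNC2LI1 was at 6.44, 6.48 and 6.74 with 5SGlcNAc and differed by -0.20 (adjusted p = 0.260), and EGR1 was at 11.27, 11.11 and 11.21 and differed by 0.15 (adjusted p = 0.0758, 95% confidence interval 0.04 to 0.27).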

How the data were processed

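Total RNA of MDA-MB-231 cells was hybridised to HG-U133A+2 Affymetrix arrays, per the labels' protocols. The deposited values are log2 levels per probe set. The authors used RMA, of no stated version, per the submitters' processing notes. RMA equalises arrays processed together, so it can hide a shift of most genes one way. The 48 h arrays have 2 decimals and the others 6, and levels were not set against each other across these sets.

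Of 22277 probe sets, 19064 named 1 gene, with symbols updated for 19052 through Entrez identifiers, and 62 controls, 1043 probe sets of several genes and 2108 of no gene were not used. The brightest probe set stood for each of 11963 genes, and no filter on dim genes was used.

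Two-sided tests were run in R 4.3.3 with limma 3.58.1 (lmFit, eBayes), and p-values were adjusted over all genes by Benjamini-Hochberg, with 0.05 as the threshold. The 9 arrays of 48 h shared 1 spread. The test over 2 to 24 h used 15 arrays with time as a block, and the difference of effects used both sets. The number of arrays limits the precision.

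Named were the 16 largest falls and 14 largest rises among called genes whose groups did not overlap, up to 3 called members of each of 44 gene lists (or the smallest p where none passed), and OGA, OGT, NFE2L2, KEAP1 and 6 NRF2 targets. Other called or uncalled list members were named after their values were seen. Members, lists and rule were chosen with earlier results of these data known. Alternatives were other scalings, leaving out dim genes (below the 40th percentile), other choices of probe set, trend and robust variance, a replicate block, the 6 arrays alone and leaving out each array or time. The scalings of the 24 h shares were added after the data were seen.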

Additional observations from a re-analysis of the deposited data

How the results depend on the processing

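The fallen and risen counts against DMSO at 48 h were 360 and 57 in all, 417 genes. They were 212 and 76 after quantile normalization, 175 and 60 (235 genes) after median centring, 724 and 201 (925) with trend and robust variance, 789 and 160 (949) without dim genes and 112 and 17 (129) with the 6 arrays alone. Leaving out 1 array gave 101 to 683 genes, 87 to 486 falls and 14 to 197 rises. Fewer genes or arrays entered some of these fits, and the counts moved both ways. The cause of these moves was not tested. With the replicate number as a block the counts were 167 and 19 (186). The deviations of same-numbered arrays had correlations of -0.06, -0.33 and 0.02, and those of other pairs -0.25 to 0.25. With 3 arrays per group these values cannot show whether the numbers pair the samples. Against 5SGlcNAc, 1634 genes, 812 higher and 822 lower, became 538 lower with the replicate block, 1070 with 498 lower in the 6 arrays alone, and 924 to 1933, 513 to 984 higher and 411 to 949 lower without 1 array. Over 2 to 24 h, 0 genes became 20 (15 up, 5 down) with trend and robust variance and 10 (7 up, 3 down) without dim genes. For the difference of effects, 0 became 1 after median centring, 2 with trend and robust variance, 3 without dim genes and 0 to 1 without 1 array. With the mean of its probe sets OGT was at 0.0553, in place of -0.24. Of 74 named and called genes, 25 stayed called in every alternative in which they were measured. The number of arrays limits the smallest change that could be called, most of all in dim genes.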

Other observations

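Genes of fatty acid oxidation and peroxisomes were listed after several were seen among the falls, so their counts support nothing on their own. Of 43 measured genes 9 fell with Thiamet-G at 48 h and none rose, against 3.01% and 0.476% of all genes, with a median of -0.08 against -0.01 over all genes. PXMP4, a peroxisomal membrane protein, was at 8.50, 8.59 and 8.44 with Thiamet-G and at 8.98, 8.89 and 8.96 with DMSO, and fell by 0.43. ETFB, an electron carrier for acyl-CoA dehydrogenases, fell by 0.41, PHYH, which starts the breakdown of phytanic acid, by 0.27, CPT2, a carnitine transferase of mitochondria, by 0.25 and PEX10, a peroxin, by 0.26. The others were ACOT13, ACOT8, CROT and ECH1. At 24 h, in single arrays, PHYH lay at -0.51, CROT at -0.49 and PXMP4 at -0.25.

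In a list also made after values were seen, of actomyosin and stress fibre proteins, 6 of 33 fell and none rose. Of all genes 3.01% fell and 0.476% rose. The list median was -0.04 against -0.01 over all genes. TAGLN, an actin-binding protein, was at 7.74, 7.77 and 7.59 with Thiamet-G and at 8.20, 8.22 and 8.02 with DMSO, and fell by 0.45, and the myosin light chains MYL6B and MYL9 fell by 0.43 and 0.36. Further ciliary genes outside the cilium list that fell were INVS (-0.42), B9D1 (-0.34) and EVC (-0.28), with second probe sets at -0.27, -0.07 and -0.05, none of them at an unadjusted p under 0.05. All these genes were chosen after their values were seen.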
